A study of Mus musculus with 18 samples.

Results

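Heat shock factors and protein chaperones were described across the striatum of 18 mice. The members were the 57 genes of a list that covers Hsf1 and Hsf2, the HSP70, HSP90 and small heat shock protein families, J-domain and BAG cochaperones, the cytosolic CCT chaperonin, and the chaperones of mitochondria and the endoplasmic reticulum (ER). They were found by gene symbol among the 55421 genes counted, and all 57 were found and passed the filter on low counts that left 20914 genes for testing. Striatal RNA was sequenced with 1 library per mouse from 5 WT, 5 zQ175, 3 CK2a'(+/-) and 5 zQ175:CK2a'(+/-) mice aged 12 to 14 months, all listed as C57BL/6. zQ175 mice model Huntington's disease (HD) and carry an expanded CAG repeat knocked into one copy of the full-length huntingtin gene. CK2a'(+/-) mice lack one allele of CK2α’, a catalytic subunit of protein kinase CK2, and zQ175:CK2a'(+/-) mice carry the knock-in and lack that allele. Per the study's methods, the CK2α’ line came from a mixed 129/SvEv and C57BL/6J background, was then bred to WT and zQ175 mice over many generations, and all mice are described there as C57BL/6J. The methods also give unequal ratios of females to males between the genotypes, while the labels give no sex.

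Heat shock factor 1 (HSF1) is the main transcription factor of the heat shock response. In unstressed cells it is held inactive, partly by chaperones, and when misfolded proteins accumulate it forms trimers, binds heat shock elements in promoters and raises the transcription of HSP70, HSP90, small heat shock proteins and their cochaperones. This response was reported to be weak in HD models, and CK2α’ was proposed as a kinase that marks HSF1 for degradation, so that fewer CK2α’ alleles would leave more HSF1 for the chaperone genes. Chaperone transcripts, which are measured here, report on that response only through mRNA, and no protein was measured in these data.

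A heat shock element is built of GAA units in alternating orientation. The promoter table (RefSeq, GRCm38.p6) held windows of 250 bases before to 50 bases after the start for 47 of the 57 members. A run of 3 units, spelled GAANNTTCNNGAA or TTCNNGAANNTTC so that both strands are read, was present in 0.603% of all 32851 windows, in 0.662% of the 27025 genes with a window, and in 4 of the 47 members (Hspd1, Hspe1, Dnajb6 and Hsph1). Hspd1 and Hspe1 share 1 such stretch between them, since they are transcribed away from each other. A pair of adjacent units, GAANNTTC or TTCNNGAA, which is part of the longer run, was present for 16 of 47 members, in 17% of all genes and in 15.1% of all windows. The 150 bases before the start are printed, 5′ to 3′ on the gene's strand, for the members with a promoter on which the results turn. Hspb8 fell in zQ175 mice and Bag3 encodes its partner, Hspa1a and Hspa1b are the stress-inducible pair, Hspb1 is the other small heat shock protein in the table, and Hspe1 and Dnajb6 hold the longer run close to the start. Capitals mark the fixed letters of each pair.
Hspb8, chr5:116422865-116423014, minus strand: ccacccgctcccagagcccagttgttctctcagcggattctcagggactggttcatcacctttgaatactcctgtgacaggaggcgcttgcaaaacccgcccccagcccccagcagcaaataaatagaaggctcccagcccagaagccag
Bag3, chr7:128523433-128523582, plus strand: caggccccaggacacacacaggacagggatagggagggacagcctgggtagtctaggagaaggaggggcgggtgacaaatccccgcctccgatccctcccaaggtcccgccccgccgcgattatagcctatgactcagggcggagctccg
Hspa1a, chr17:34972157-34972306, minus strand: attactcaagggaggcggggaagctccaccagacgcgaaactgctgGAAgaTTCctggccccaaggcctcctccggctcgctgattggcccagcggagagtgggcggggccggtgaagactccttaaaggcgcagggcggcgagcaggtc
Hspa1b, chr17:34959239-34959388, minus strand: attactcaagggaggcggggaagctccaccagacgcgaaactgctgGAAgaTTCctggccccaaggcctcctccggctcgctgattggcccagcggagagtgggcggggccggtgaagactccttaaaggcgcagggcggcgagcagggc
Hspb1, chr5:135887769-135887918, plus strand: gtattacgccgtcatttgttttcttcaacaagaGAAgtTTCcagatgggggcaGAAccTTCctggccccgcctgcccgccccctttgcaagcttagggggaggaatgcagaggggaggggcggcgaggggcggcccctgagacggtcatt
Hspe1, chr1:55087998-55088147, plus strand: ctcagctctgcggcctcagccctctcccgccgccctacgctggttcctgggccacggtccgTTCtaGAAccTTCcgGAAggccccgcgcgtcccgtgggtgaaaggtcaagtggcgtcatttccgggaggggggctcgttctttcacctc
Dnajb6, chr5:29735748-29735897, plus strand: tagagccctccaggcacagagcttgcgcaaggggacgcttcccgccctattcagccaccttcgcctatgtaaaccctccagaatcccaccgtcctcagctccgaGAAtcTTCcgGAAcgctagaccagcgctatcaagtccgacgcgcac
The Hspa1a and Hspa1b stretches differed at 1 of 150 bases and each held 1 pair. Hspb1 held 2 separate pairs, and Hspe1 and Dnajb6 held overlapping pairs that join into runs of 4 and 3 units. No pair lay in the printed stretches of Hspb8 and Bag3, whose only pairs started 3 and 43 bases after the transcription start. A match of letters is a description and not a bound site.

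The libraries held 13612381 to 22702547 counts (median 18005044), and log2 CPM of libraries of a genotype correlated at 0.984 to 0.9925. Csnk2a2 (GRCm38, chr8:95446096-95490039), which encodes CK2α’, followed the labels. It lay at 29.4, 35.0, 32.8, 30.4 and 30.5 CPM (counts scaled to library size after TMM normalization) in WT mice and at 33.6, 32.0, 37.5, 37.0 and 34.7 CPM in zQ175 mice. It lay at 17.4, 14.7 and 18.02 CPM in CK2a'(+/-) mice and at 18.3, 16.3, 19.9, 17.9 and 15.8 CPM in zQ175:CK2a'(+/-) mice, without overlap between mice with 1 and with 2 alleles. Its log2 fold change was -0.92 in CK2a'(+/-) against WT mice (edgeR FDR 0.000897) and -0.99 in zQ175:CK2a'(+/-) against zQ175 mice (FDR 1.61e-05). Summed over 9 markers, striatal projection neuron transcripts were abundant in all libraries, from 1460 to 6432 CPM. The sum of 4 choroid plexus markers lay between 970 and 3064 CPM in 4 libraries (WT replicates 1 and 3, CK2a'(+/-) replicate 1 and zQ175:CK2a'(+/-) replicate 2) and at no more than 21.5 CPM in the other 14, and the fit was repeated without those 4 libraries. The median shift in a member's log2 fold change was then 0.02 to 0.06 in the 6 comparisons, with 1 to 4 of 57 members per comparison shifted by more than 0.2, and values that the results turn on are given below.

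The chaperone genes spanned mean levels of 0.209 to 432 FPKM, the scale per length on which genes can be compared. Hsp90ab1 and Hsp90aa1, the constitutive and the more inducible cytosolic HSP90, had mean levels of 432 and 126 FPKM over the 18 mice, and Hspa8, the constitutive cytosolic HSP70, had 201. The ER HSP90 Hsp90b1 followed at 82.0 FPKM, then the HSP70 nucleotide exchange factor Bag1 at 54.7 and the small heat shock protein Cryab at 50.2. The order among the top 4 did not depend on the mouse, since the lowest Hsp90ab1 level (355 FPKM) lay above the highest Hspa8 level (232.5 FPKM), the lowest Hspa8 level (157 FPKM) above every value of Hsp90aa1 and the lowest of Hsp90aa1 (102 FPKM) above the highest of Hsp90b1 (94.9 FPKM). In the middle of the order the ranges of neighbours overlapped.

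The stress-inducible genes Hspa1b, Hspa1a and Hspb1 stood near the other end, where Hspa4l was the lowest at 0.209 FPKM. Hspa1b and Hspa1a, which encode the HSP70 that is switched on by heat shock, had 0.623 and 0.366 FPKM, and Hspb1, which encodes the small heat shock protein HSP25/27, had 1.41. The authors removed reads of low mapping quality, and Hspa1b and Hspa1a share 62.3% and 58.8% of their 50-base transcript windows with each other. The levels given for this pair may therefore be too low. Hsf1 itself was at 4.81 FPKM and Hsf2, a second heat shock factor, at 2.43. The 3 lowest genes were also the most variable. The coefficient of variation over the 18 mice was 81.2% for Hspa4l, 76.4% for Hspa1b, 55.1% for Hspa1a and 54.2% for Hspb1, against 7.31% for Hsf1 and 4.33% for Ptges3, an HSP90 cochaperone and the steadiest member. Together the members held 0.603% to 0.734% of all counts in a library.

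**Figure D1:**
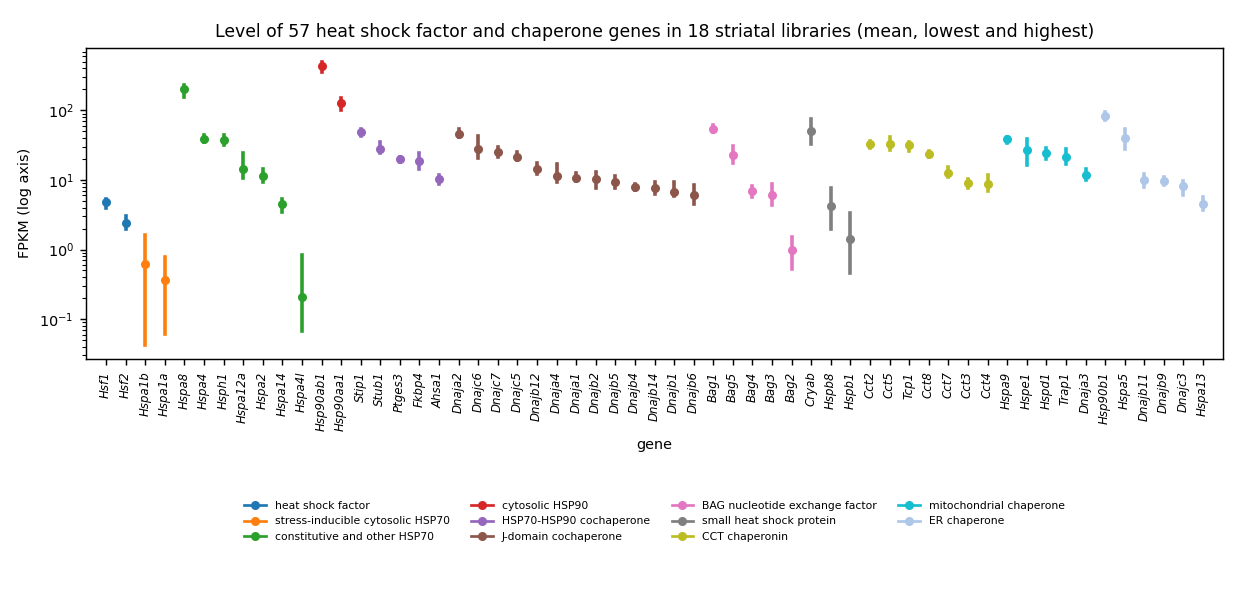
Level of each of the 57 genes in FPKM (log axis), with the mean of 18 mice as a point and the lowest and highest mouse as a line, coloured by role. Hsp90ab1 (432 FPKM) and Hspa8 lead, and Hspa1b, Hspa1a and Hspa4l lie under 1 FPKM with the longest lines.

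The first comparison asked how chaperone transcripts differ in zQ175 striatum from WT. Cryab and Hspb8, 2 of the 3 small heat shock proteins, fell in zQ175 mice, where 0.712% of all genes fell, and no chaperone rose by edgeR's test, where 0.387% of all genes did. Most members differed little, with 53 of 57 log2 fold changes under 0.5 in size and a median of -0.0042 against 0.0042 for all genes tested. At an FDR under 0.1, edgeR called 2 of 57 members, where 1.1% of all genes passed. At an unadjusted p under 0.05 there were 15 members, where 13.9% of all genes had such a p. Of these 8 were higher (6.79% of all genes) and 7 lower (7.1%). DESeq2, the study's tool, called 6 members at q under 0.1, where it called 5.26% of all genes with a q.

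**Figure D2:**
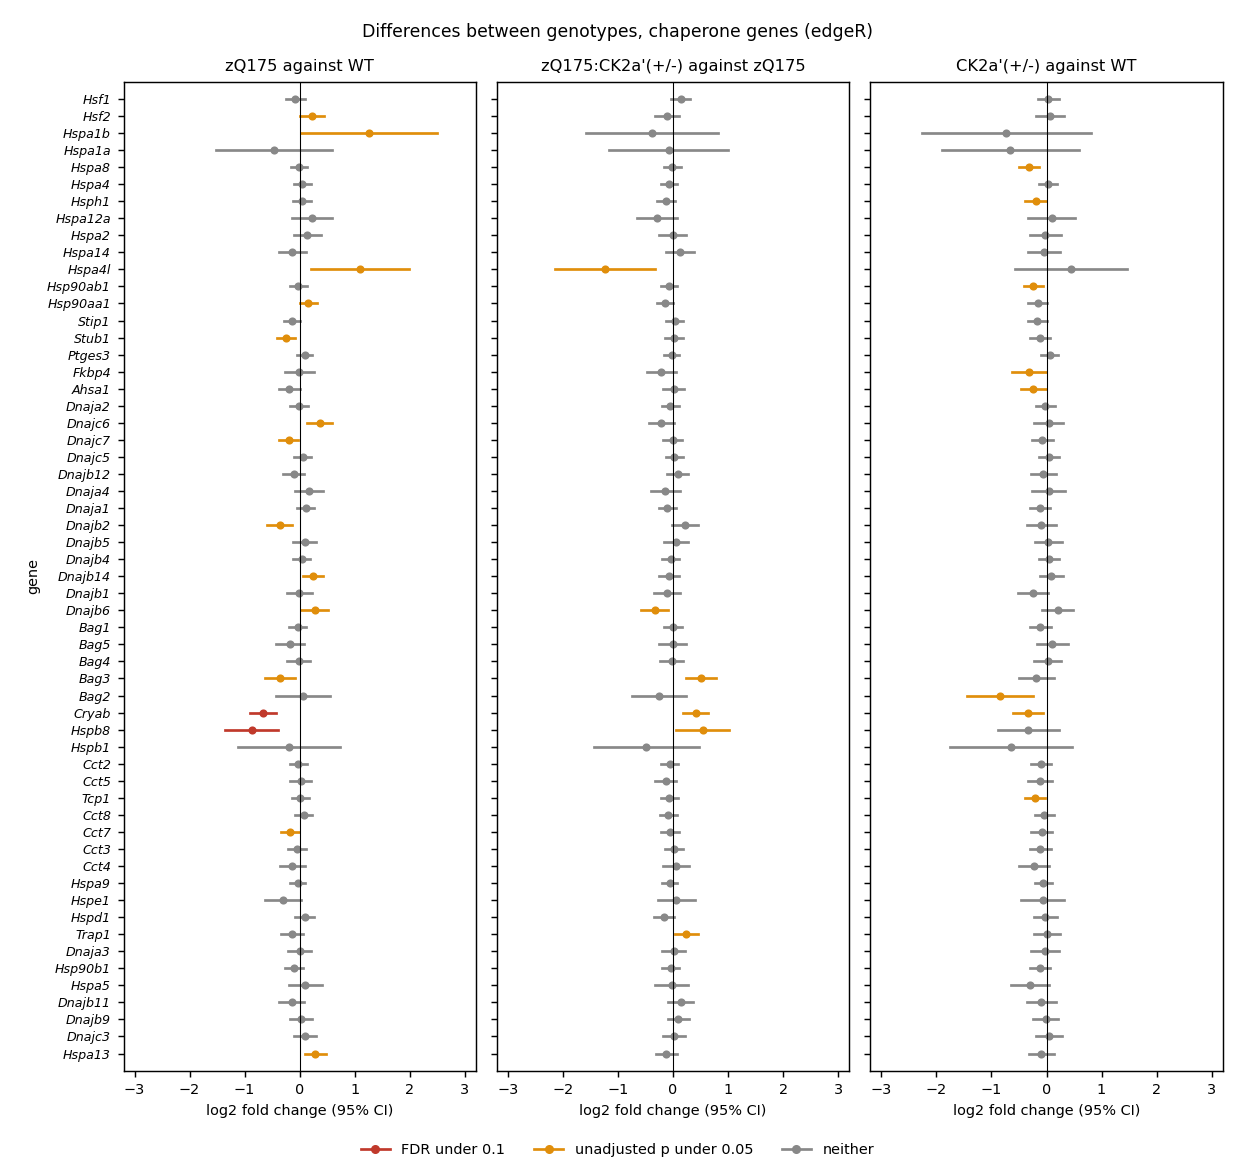
Log2 fold change of each member (edgeR) with its 95% confidence interval in 3 comparisons, ordered by role, with colour for FDR under 0.1, unadjusted p under 0.05 or neither. Red marks Cryab and Hspb8 in zQ175 against WT, and no other panel holds a red point.

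Neither heat shock factor passed. Hsf1 (chr15:76477422-76501913) was at 36.3, 32.8, 37.0, 33.3 and 30.9 CPM in WT mice and at 33.0, 34.6, 34.3, 31.9 and 27.6 CPM in zQ175 mice. The groups overlapped, with a log2 fold change of -0.08 (SE 0.08), a 95% interval of -0.25 to 0.10 and an edgeR FDR of 0.732. It ranged from -0.11 without zQ175 replicate 2 to -0.03 without zQ175 replicate 5, and was -0.00155 without the libraries high in choroid plexus markers. Hsf2 was at 22.2, 24.9, 18.7, 22.6 and 20.2 CPM in WT mice and at 25.4, 25.7, 24.7, 24.2 and 26.4 CPM in zQ175 mice. Of the zQ175 mice, 3 lay above all WT mice, and the log2 fold change of 0.22 (SE 0.10) had an unadjusted p of 0.0486 and an edgeR FDR of 0.356.

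Hspa1a and Hspa1b are near-identical genes side by side (chr17:34969190-34972156 and chr17:34956436-34959238), and 58.8% of the 50-base windows of the Hspa1a transcript occur in Hspa1b, so reads of one copy may be lost or credited to the other. Hspa1a was at 0.598, 1.28, 2.31, 1.55 and 1.25 CPM in WT mice and at 0.656, 0.637, 2.21, 0.659 and 0.914 CPM in zQ175 mice. Hspa1b was at 0.498, 1.17, 1.91, 0.755 and 1.30 CPM in WT mice and at 1.12, 2.55, 3.32, 1.91 and 4.52 CPM in zQ175 mice. Hspa1b was higher in 4 of 5 zQ175 mice than in any WT mouse, in replicate 4 by less than 0.01 CPM, while Hspa1a was under 1 CPM in 4 of 5 zQ175 mice. The log2 fold changes were 1.26 (SE 0.60) for Hspa1b (edgeR FDR 0.352) and -0.46 (SE 0.51) for Hspa1a (edgeR FDR 0.741). That of Hspa1a was -0.97 without zQ175 replicate 3 and -0.21 without WT replicate 3. Counted as 1 gene, the pair held 5 to 101 counts per mouse and differed by 0.56 (SE 0.48) on the log2 scale, with an edgeR FDR of 0.657. It was 0.35 without WT replicate 1 and 0.81 without WT replicate 3.

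Cryab encodes αB-crystallin, a small heat shock protein that holds unfolded proteins and is known for high levels in oligodendrocytes and other glia. It was at 77.9, 76.5, 111, 94.4 and 93.8 CPM in WT mice and at 48.3, 60.3, 52.9, 70.2 and 55.4 CPM in zQ175 mice. All 5 zQ175 mice lay below all 5 WT mice. Cryab (chr9:50751325-50756636) fell by 0.66 on the log2 scale (SE 0.11, edgeR FDR 0.0442, DESeq2 q 0.000328), from 90.7 ± 14.1 to 57.4 ± 8.36 CPM (mean ± SD, n = 5 each). Its edgeR FDR was 0.155 without WT replicate 3, 0.106 without zQ175 replicate 5 and 0.145 with only the 2 groups in the fit, and in each of these 3 fits 0 genes passed. Cryab overlaps Hspb2 on the opposite strand over 17.0% of its exons, but Hspb2 had a median of 3 counts against 1260 for Cryab.

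Hspb8 encodes a small heat shock protein that works with the cochaperone BAG3 to hand misfolded clients to autophagy. It was at 13.1, 7.99, 15.1, 8.39 and 8.02 CPM in WT mice and at 3.89, 7.01, 4.61, 6.07 and 7.04 CPM in zQ175 mice. The groups did not overlap, but the nearest mice of each, at 7.99 and 7.04 CPM, were close. Hspb8 (chr5:116408491-116422864) fell by 0.87 on the log2 scale (SE 0.23) at an edgeR FDR of 0.0999, at the threshold, and a DESeq2 q of 0.0192. The edgeR FDR rose to between 0.127 and 0.246 without each of WT replicates 1 and 3 and zQ175 replicates 1, 3, 4 and 5. Mice of the other genotypes share the fit. Without CK2a'(+/-) replicate 2, or any of zQ175:CK2a'(+/-) replicates 1, 3, 4 and 5, 1 member passed in zQ175 against WT. In these fits 0.696% to 0.933% of all genes passed. Groups without overlap were seen for these 2 members alone, where 2.44% of all genes tested had none.

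Bag3 (chr7:128523616-128546981) was at 18.3, 13.8, 16.1, 15.7 and 17.98 CPM in WT mice and at 11.7, 11.3, 11.9, 15.8 and 13.4 CPM in zQ175 mice. In zQ175 mice 4 of 5 values lay below every WT mouse, and replicate 4 lay among them, for a log2 fold change of -0.36 (SE 0.13) and an edgeR FDR of 0.233. Hspb1, the third small heat shock protein, was at 1.40, 1.51, 1.57, 3.46 and 1.07 CPM in WT mice and at 1.36, 1.10, 2.77, 1.39 and 1.29 CPM in zQ175 mice. It ranged widely in both groups, with 1 high mouse in each, and differed by -0.19 (SE 0.45) on the log2 scale (exact two-sided permutation test of mean CPM, p = 0.579).

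**Figure D3:**
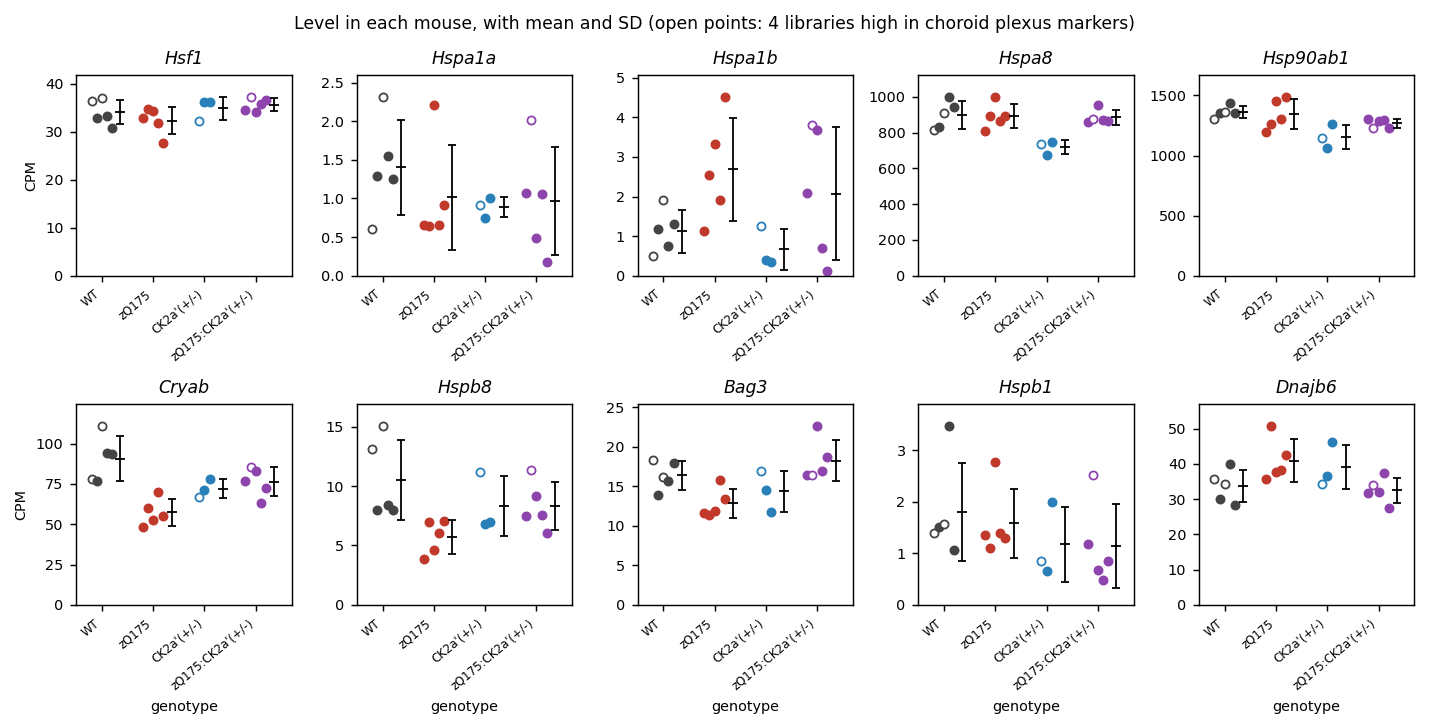
CPM of 10 chaperone genes in each mouse by genotype, with mean and SD at the right of each group and open points for the 4 libraries high in choroid plexus markers. Cryab lies at 48.3 to 70.2 CPM in zQ175 mice and at 76.5 to 111 CPM in WT mice, and the open points are the 4 highest values of Hspb8.

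In zQ175 against WT mice, oligodendrocyte marker transcripts were lower along with Cryab and Hspb8. The summed level of 6 oligodendrocyte markers was 5399 to 7459 CPM in WT, 3525 to 5302 in zQ175, 5593 to 7021 in CK2a'(+/-) and 4016 to 5422 in zQ175:CK2a'(+/-) mice, with none of the 6 at 0. The mean sum was 6317 CPM in CK2a'(+/-) against 6122 in WT mice, while Cryab was lower there, at 72.0 against 90.7 CPM. In zQ175 against WT, the markers Mbp, Mobp and Cnp fell by 0.42 to 0.60 on the log2 scale, and Mog and Mag did not pass. With the summed oligodendrocyte level as a covariate, the log2 fold changes of Cryab, Hspb8 and Bag3 were -0.28, -0.44 and -0.07, with edgeR FDRs of 0.704, 0.805 and 0.957. The sums of WT and zQ175 mice did not overlap, so this fit cannot tell genotype from marker level. In it 0 of 20914 genes passed. In bulk RNA, fewer cells of a type and less RNA per cell cannot be told apart. The 6 astrocyte markers overlapped between groups, at 2784 to 4081 CPM in WT and 2673 to 3312 in zQ175 mice, none passed, and with their sum as covariate Cryab and Hspb8 differed by -0.66 and -0.84. Of 9 markers of striatal projection neurons, 3 (Ppp1r1b, Penk and Adora2a) fell in zQ175 mice, and their sum was 2678 to 6411 CPM in WT and 1460 to 2926 CPM in zQ175 mice. Of 5 cortical excitatory neuron markers, 4 were higher in zQ175 than in WT mice at p under 0.05, and Tbr1 rose (log2 fold change 1.27, edgeR FDR 0.0902). Their sum was 72.4 to 84.4 CPM in WT mice and 81.9 to 314 CPM in zQ175 mice, of which 4 lay above all WT mice and replicate 5 was the highest. The part of these 2 marker lists in the chaperone results was not tested.

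Choroid plexus transcripts moved with Hspb8 across libraries. The 4 libraries high in the choroid plexus markers were the 4 highest of the 18 mice for Hspb8, at 13.1, 15.1, 11.2 and 11.3 CPM. Without them Hspb8 was at 7.99 to 8.39 CPM in 3 WT mice and at 3.89 to 7.04 in 5 zQ175 mice, still apart, and the log2 fold change was -0.51 (unadjusted edgeR p of 0.026, FDR 0.592). Cryab was then at 76.5 to 94.4 CPM in WT mice, and its log2 fold change was -0.62 (unadjusted edgeR p of 8.64e-05, FDR 0.496). No member passed in this comparison without these 4 libraries. Of the 15 members with an unadjusted p under 0.05 over 18 mice, all 15 had the same direction without them and 4 (Cryab, Hspb8, Dnajb6 and Dnajc6) still had such a p, against 46.5% of all genes with such a p. Bag3 was then at -0.31 (unadjusted edgeR p of 0.0666).

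**Figure D4:**
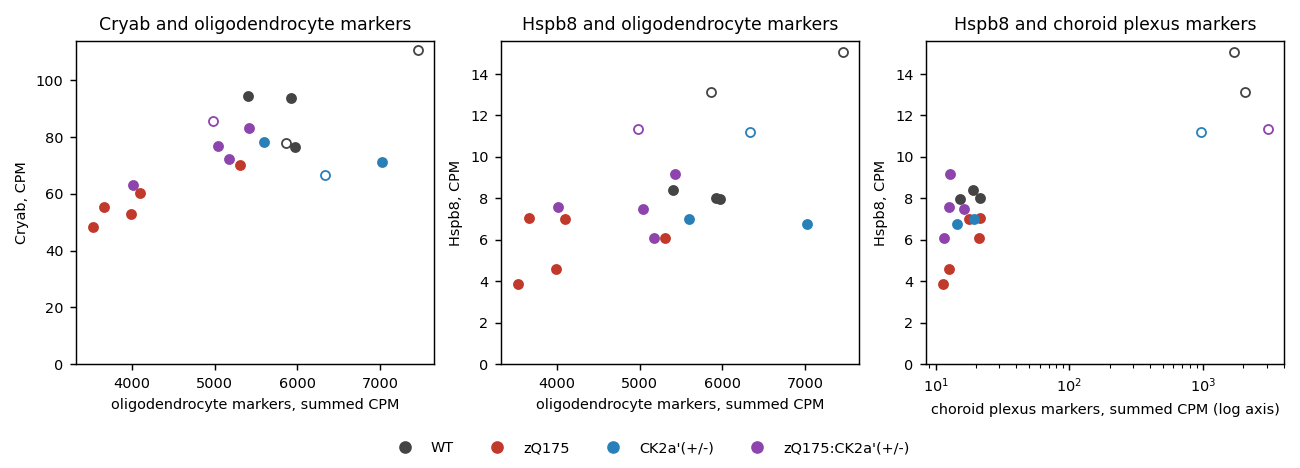
Cryab and Hspb8 in CPM against the summed CPM of oligodendrocyte markers, and Hspb8 against summed choroid plexus markers (log axis), with 1 point per mouse, coloured by genotype and open for the 4 libraries high in choroid plexus markers. zQ175 mice occupy the lower left of the first panel, between 3525 and 5302 CPM of oligodendrocyte markers, and the 4 open points lie apart on the right of the last.

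The abundant HSP70 and HSP90 genes differed little in zQ175 mice. Hspa8 was at 815 to 999 CPM in WT and 809.8 to 999.9 CPM in zQ175 mice, which gave a log2 fold change of -0.01 (SE 0.07) and a 95% interval of -0.16 to 0.14. The interval of Hsp90ab1 was -0.17 to 0.13, and that of Hsph1, an HSP110 that exchanges nucleotide on HSP70, was -0.11 to 0.21. Hsp90aa1 was at 454 to 543 CPM in WT and 499 to 589.6 CPM in zQ175 mice, higher by 0.16 (SE 0.07) on the log2 scale (edgeR FDR 0.332). Hspa4l, another HSP110, was at 1.84, 1.62, 1.70, 1.91 and 1.99 CPM in WT mice and at 1.73, 3.71, 2.15, 9.89 and 2.04 CPM in zQ175 mice. Its log2 fold change of 1.09 (SE 0.43, edgeR FDR 0.258) rested on zQ175 replicate 4 and was 0.40 without that mouse.

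Among the cochaperones, none passed edgeR's FDR and 3 passed in DESeq2. Dnajb2, a neuronal J-domain protein that sorts ubiquitylated clients, was at 53.5, 35.6, 55.7, 52.2 and 49.7 CPM in WT mice and at 35.6, 35.5, 42.1, 45.6 and 33.0 CPM in zQ175 mice. Its log2 fold change was -0.36 (SE 0.11), with an edgeR FDR of 0.147 and a DESeq2 q of 0.0724, and WT replicate 2 was the WT mouse within the zQ175 range. Stub1, which encodes CHIP, the ubiquitin ligase that marks chaperone clients, was at 86.8, 69.9, 89.0, 74.4 and 79.7 CPM in WT mice and at 69.9, 72.2, 66.6, 65.2 and 63.4 CPM in zQ175 mice. Here too WT replicate 2 was the lowest WT mouse, inside the zQ175 range, and the log2 fold change was -0.24 (SE 0.08, edgeR FDR 0.156, DESeq2 q 0.0865). Without WT replicate 2 the edgeR FDR was 0.0272 for Dnajb2 and 0.0543 for Stub1, and 4 members passed, but so did 2.82% of all genes, against 1.1% over all mice. Without the 4 libraries high in choroid plexus markers the log2 fold change of Stub1 was -0.15 (edgeR FDR 0.697). Stub1 shares 42.3% of its exon bases with Jmjd8 on the opposite strand, whose median of 244 counts compares with 1249 for Stub1.

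Dnajc6 encodes auxilin, the J-domain protein that lets HSP70 strip clathrin from vesicles. It was at 140.1, 147, 136, 145 and 165 CPM in WT mice and at 254, 157, 184, 171 and 175 CPM in zQ175 mice. Of the zQ175 mice 4 lay above all WT mice, and replicate 1 stood far above the rest. Dnajc6 was higher by 0.36 (SE 0.11) on the log2 scale (edgeR FDR 0.139, DESeq2 q 0.0566) and by 0.23 without that mouse. Dnajb6, a J-domain protein known to suppress polyglutamine aggregation, was higher by 0.28 (SE 0.12, edgeR FDR 0.300) and by 0.18 without zQ175 replicate 2. Dnajb14, an ER membrane J-domain protein, was higher by 0.25 (SE 0.09, edgeR FDR 0.196). Dnajc7, which binds both HSP70 and HSP90, had a log2 fold change of -0.20 (SE 0.08, edgeR FDR 0.267). Dnajc7 overlaps the oligodendrocyte gene Cnp by 154 exon bases on the opposite strand. The median log2 fold change of the 13 J-domain cochaperones was 0.05. Dnajb1 and Dnajb5, a heat-inducible partner of HSP70 and a relative of it, had edgeR FDRs of 0.993 and 0.746, with 95% intervals of -0.24 to 0.23 and -0.12 to 0.31.

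Of the CCT, mitochondrial and ER chaperones, none passed edgeR's FDR (1.1% of all genes) and 1 passed in DESeq2 (5.26% of all genes). The 7 CCT subunits among the members, parts of a complex that folds actin and tubulin in the cytosol, had log2 fold changes of -0.17 (Cct7, edgeR FDR 0.343) to 0.07, with Tcp1 at 0.01. The 5 mitochondrial chaperones ranged from -0.30 for Hspe1 to 0.09 for Hspd1, its partner in the HSP60 and HSP10 folding chamber, and none had a p under 0.05. Of the 6 ER chaperones Hspa5, the BiP chaperone that senses unfolded ER proteins, was at 133 to 197 CPM in WT and 139 to 231 CPM in zQ175 mice, with a log2 fold change of 0.10 (SE 0.14), or 0.22 without the libraries high in choroid plexus markers. Hspa13, an HSP70-like ATPase of microsomes, was at 27.2, 28.8, 25.7, 32.3 and 28.6 CPM in WT mice and at 29.3, 38.9, 38.2, 34.4 and 32.5 CPM in zQ175 mice. Of the zQ175 mice replicate 1 alone lay within the WT range, and Hspa13 was higher by 0.28 (SE 0.09) on the log2 scale, with an edgeR FDR of 0.168 and a DESeq2 q of 0.0928.

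In the comparison that the proposed pathway turns on, zQ175:CK2a'(+/-) against zQ175 mice, no chaperone passed. In its discussion, the paper names Hsp70 and Hsp25 as raised in zQ175:CK2a'(+/-) mice by RNA-seq, without values or a stated comparison group. By edgeR 0 of 57 members had an FDR under 0.1, where 0.0143% of all genes did (3 genes, Csnk2a2 among them), and DESeq2 called 0 of 57 as well, against 0.145% of all genes. At an unadjusted p under 0.05 there were 6 members, where 6.27% of all genes had such a p. The 4 higher members (2.76% of all genes) were Cryab, Hspb8, Bag3 and Trap1, and the 2 lower ones (3.51%) were Dnajb6 and Hspa4l. The median log2 fold change of the members was -0.04 against -0.01 for all genes tested, and 54 of 57 were under 0.5 in size. The same 5 zQ175 mice serve in this comparison and in that with WT mice.

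Hsf1 was at 34.5, 37.3, 34.0, 35.7 and 36.7 CPM in zQ175:CK2a'(+/-) mice. Of these 3 lay above all zQ175 mice, for a log2 fold change of 0.14 (SE 0.08) with a 95% interval of -0.03 to 0.31 (edgeR FDR 0.844). An exact two-sided permutation test of mean CPM, 35.6 against 32.3, gave p = 0.0397 and 0.595 after Benjamini-Hochberg adjustment over 15 such tests. It was above 0.05 without any one of 6 of the 10 mice, with p up to 0.0714. Hspa1a was at 1.07, 2.01, 0.490, 1.06 and 0.180 CPM and Hspa1b at 2.08, 3.81, 3.67, 0.690 and 0.120 CPM in zQ175:CK2a'(+/-) mice. Replicate 5 was the lowest of all 18 mice for both, and the pair counted as 1 gene differed from zQ175 by -0.29 (SE 0.48, edgeR FDR 0.960). The log2 fold change of Hspa1a was -0.08, or -0.52 without the libraries high in choroid plexus markers and 0.40 without zQ175 replicate 3. Its sign reversed in 3 of the fits that left out 1 mouse. Hspb1 was at 1.18, 2.51, 0.674, 0.478 and 0.841 CPM in zQ175:CK2a'(+/-) mice, of which 3 lay below all zQ175 mice, with a log2 fold change of -0.49 (SE 0.46, edgeR FDR 0.913). It was -0.20 without zQ175 replicate 3 and -0.99 without zQ175:CK2a'(+/-) replicate 2, 1 of the 4 libraries high in choroid plexus markers, and -0.99 without all 4 (unadjusted edgeR p of 0.0549, FDR 0.996). The exact two-sided permutation test of mean CPM gave p = 0.381 over the 10 mice (0.714 after adjustment over the 15 tests) and p = 0.0317, unadjusted, without that replicate 2. For these low genes the 95% intervals ran from -1.16 to 0.99 for Hspa1a and from -1.44 to 0.47 for Hspb1. Differences within these intervals are not excluded by the values of these mice.

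Bag3 was at 16.4, 16.4, 22.6, 16.98 and 18.7 CPM in zQ175:CK2a'(+/-) mice. All 5 lay above all 5 zQ175 mice, and Bag3 was the single member without overlap, where 1.14% of all genes had none. Its log2 fold change was 0.51 (SE 0.13), with an unadjusted p of 0.00105, an edgeR FDR of 0.438 and a DESeq2 q of 0.181. Cryab was at 77.0, 85.7, 83.2, 63.1 and 72.1 CPM in zQ175:CK2a'(+/-) mice, of which replicate 4 alone lay within the zQ175 range. It was higher than in zQ175 mice by 0.41 (SE 0.11) on the log2 scale (unadjusted edgeR p of 0.00155, FDR 0.482). Hspb8 was at 7.49, 11.3, 9.19, 7.59 and 6.07 CPM in zQ175:CK2a'(+/-) mice, 1 of them inside the zQ175 range, and was higher by 0.54 (SE 0.23, unadjusted edgeR p of 0.0300, FDR 0.738).

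The oligodendrocyte markers were again on the same side, since Mbp, Mog, Mobp, Mag and Cnp were higher in zQ175:CK2a'(+/-) than in zQ175 mice by 0.23 to 0.34 on the log2 scale, though none passed. With their sum as covariate, the edgeR log2 fold changes of Bag3, Cryab and Hspb8 were 0.37, 0.24 and 0.35 (FDR 0.996 for each). Without the 4 libraries high in choroid plexus markers they were 0.54, 0.36 and 0.41, and 5 of the 6 members kept a p under 0.05, where 60.6% of all genes with such a p did, with Hspb8 at an unadjusted edgeR p of 0.0517. Of the 5 cortical excitatory neuron markers, 4 were lower in zQ175:CK2a'(+/-) than in zQ175 mice at p under 0.05, with none called by edgeR and 2 by DESeq2, and their sum was 33.8 to 75.7 CPM in zQ175:CK2a'(+/-) mice. Of 5 microglia markers 3 were higher at p under 0.05, with none called by either tool, and their sum was 98.2 to 119 CPM in zQ175 and 114 to 127 CPM in zQ175:CK2a'(+/-) mice. The part of the cortical and microglia markers in these results was not tested. Trap1, the mitochondrial HSP90, was higher by 0.24 (SE 0.10, unadjusted edgeR p of 0.0237, FDR 0.709), and by 0.15 without zQ175:CK2a'(+/-) replicate 4. Dnajb6 was at 35.6, 50.8, 37.7, 38.2 and 42.4 CPM in zQ175 and at 31.8, 34.1, 32.1, 37.3 and 27.6 CPM in zQ175:CK2a'(+/-) mice. The groups overlapped in zQ175 replicate 1 and zQ175:CK2a'(+/-) replicate 4, and the log2 fold change was -0.33 (SE 0.12, edgeR FDR 0.637). The lower Hspa4l level (-1.23, edgeR FDR 0.633) was -0.54 without zQ175 replicate 4. The major chaperones Hspa8, Hsp90ab1, Hsp90aa1 and Hspa5 had log2 fold changes of -0.01, -0.08, -0.14 and -0.03, and Stip1, which bridges HSP70 and HSP90, 0.03. That of Hspa5 was -0.12 without the libraries high in choroid plexus markers.

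**Figure D5:**
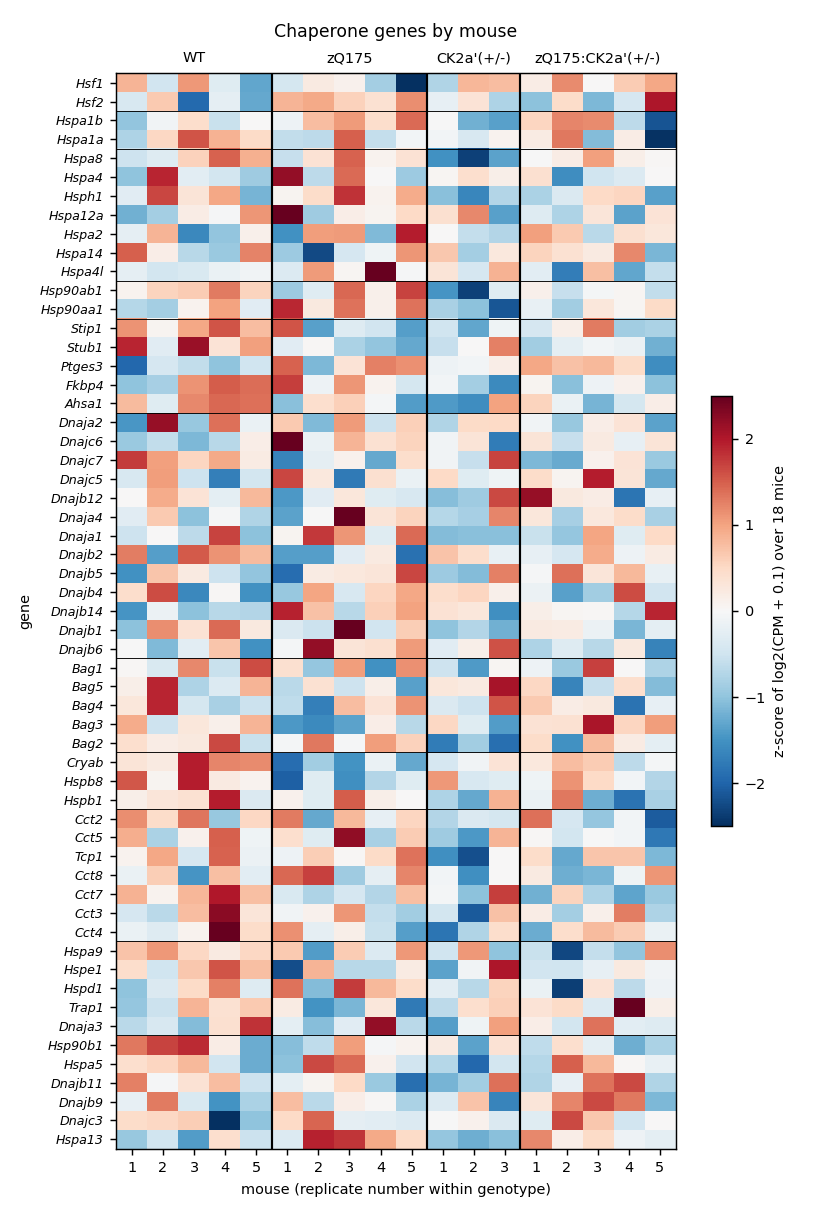
Each member's level in each mouse as a z-score of log2(CPM + 0.1) over 18 mice, with genes in rows by role and mice in columns by genotype. Cryab, Hspb8 and Bag3 are blue in most of the 5 zQ175 columns, and Hspa8 is blue in the 3 columns of mice with 1 CK2α’ allele and no knock-in.

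zQ175:CK2a'(+/-) mice were also set against WT mice. By edgeR 0 of 57 members passed, where 0.0143% of all genes did, and 0 passed in DESeq2, against 0.725% of all genes. Of the 4 members with a p under 0.05 (9.13% of all genes) all were lower in zQ175:CK2a'(+/-) mice (4.85% of all genes), and they were Cryab (-0.25, edgeR FDR 0.503), Stub1 (-0.22), Cct7 (-0.23) and Dnajc7 (-0.21). Hspb8 differed by -0.33 (SE 0.23) and Bag3 by 0.15 (SE 0.13) from WT (edgeR FDR 0.708 and 0.797). Without the libraries high in choroid plexus markers these values were -0.10 (SE 0.22) and 0.24 (SE 0.16), and those of Cryab and Stub1 were -0.26 (unadjusted edgeR p of 0.061) and -0.13. Of the 4 members Cct7 alone then kept a p under 0.05 (32.3% of all genes with such a p did), and Hspb1 moved from -0.68 to -1.34 (unadjusted edgeR p of 0.0202, FDR 1.00). Cryab was also at -0.16 without WT replicate 3. All 9 striatal projection neuron markers were lower in zQ175:CK2a'(+/-) than in WT mice, 5 of them at p under 0.05, with sums of 2405 to 3430 against 2678 to 6411 CPM. Of the 6 oligodendrocyte markers 5 were lower, 3 at p under 0.05, with sums of 4016 to 5422 against 5399 to 7459 CPM. None of these markers was called by edgeR or DESeq2, and their part in these values was not tested. No member was without overlap, where 1.84% of all genes were. This comparison and that of zQ175 against WT use the same WT mice. Hsf1 had a 95% interval of -0.11 to 0.24 and Hsp90ab1 one of -0.25 to 0.05.

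Loss of one CK2α’ allele without the knock-in was tested in 3 CK2a'(+/-) mice against 5 WT mice. By edgeR 0 of 57 members passed (0.0143% of all genes) and by DESeq2 0 of 57 (0.0293%). At p under 0.05 there were 8 members, all lower in CK2a'(+/-) mice, where 4.48% of all genes had such a p and 2.49% were lower. Of the 57 log2 fold changes 40 were below 0 (51.1% of all genes), with a median of -0.09 against -0.01 for all genes. Groups did not overlap for 6 members, where 3.2% of all genes had none. Hspa8, the most abundant HSP70, was at 815, 832, 911, 999 and 942 CPM in WT mice and at 736, 676 and 749 CPM in CK2a'(+/-) mice. All 3 CK2a'(+/-) mice were below all WT mice, by -0.32 (SE 0.08) on the log2 scale (unadjusted edgeR p of 0.00110, FDR 0.787).

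Hsp90ab1 was at 1301, 1353, 1363, 1440 and 1353 CPM in WT mice and at 1142, 1064 and 1261 CPM in CK2a'(+/-) mice, likewise apart, by -0.24 (SE 0.08, unadjusted edgeR p of 0.00872, FDR 0.999). Bag2, an inhibitor of CHIP, was at 2.41 to 4.66 CPM in WT and 1.602 to 2.19 CPM in CK2a'(+/-) mice, lower by edgeR at -0.84 (SE 0.28) on the log2 scale (FDR 0.999). The other members with a p under 0.05 were Cryab (-0.33), Fkbp4 (-0.32) and Ahsa1 (-0.24), both HSP90 cochaperones, Tcp1 (-0.20) and Hsph1 (-0.20). Ahsa1 was at -0.38 without CK2a'(+/-) replicate 3. Without the libraries high in choroid plexus markers, which left 2 CK2a'(+/-) and 3 WT mice, 4 of the 8 (Hspa8, Hsp90ab1, Bag2 and Fkbp4) kept a p under 0.05, where 46.4% of all genes with such a p did, and Cryab was at -0.24 (unadjusted edgeR p of 0.137). Dnaja1 and Stip1 were lower and Ptges3 higher in all CK2a'(+/-) than in all WT mice, with p above 0.05 in edgeR. Both heat shock factors were near their WT level, with intervals of -0.16 to 0.23 for Hsf1 and -0.19 to 0.31 for Hsf2. All 9 striatal projection neuron markers were higher in CK2a'(+/-) than in WT mice (median log2 fold change 0.31, none at p under 0.05), with sums of 4529 to 6432 against 2678 to 6411 CPM. Of 5 endothelial markers 4 were higher, Flt1 at p under 0.05 and without overlap, with sums of 109 to 143 against 78.8 to 109.9 CPM. The 6 oligodendrocyte markers split into 3 higher and 3 lower, none at p under 0.05, with sums of 5593 to 7021 against 5399 to 7459 CPM. No marker of these lists was called by edgeR or DESeq2, and their part in the chaperone values was not tested.

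In the presence of 1 CK2α’ allele, zQ175:CK2a'(+/-) mice were compared with CK2a'(+/-) mice. By edgeR 0 of 57 members passed, where 0.593% of all genes did, and Hspa8 had the lowest FDR. It was at 859, 876, 954, 872 and 862 CPM in zQ175:CK2a'(+/-) mice, all above the 3 CK2a'(+/-) mice, by 0.30 (SE 0.08) on the log2 scale (edgeR FDR 0.170, DESeq2 q 0.0449). DESeq2 called this member alone, where it called 1.47% of all genes, and with only these 2 genotypes in the fit the edgeR FDR was 0.0558, where 2.43% of all genes passed. At p under 0.05 there were 8 members (9.18% of all genes). The 7 higher in zQ175:CK2a'(+/-) mice (4.33% of all genes) were Hspa8, Hspa13 (0.25), Hspa5 (0.37), Hsp90aa1 (0.18), Bag3 (0.34), Bag2 (0.65) and Hspa1b (1.61), and Bag5 (-0.29) was lower (4.86% of all genes). Single libraries moved some of these values, and Bag5 was at -0.15 and Bag3 at 0.21 without CK2a'(+/-) replicate 3 and Hspa1b at 2.47 without CK2a'(+/-) replicate 1. Without the libraries high in choroid plexus markers 4 of the 8 (Hspa8, Hsp90aa1, Bag3 and Hspa1b) kept a p under 0.05, where 62.1% of all genes with such a p did, with Hspa8 at 0.32 and Bag3 at 0.50. Hspa8, Hspa13 and Dnaja1 did not overlap, where 8.34% of all genes had no overlap at these group sizes. All 9 striatal projection neuron markers were lower in zQ175:CK2a'(+/-) than in CK2a'(+/-) mice, 7 of them at p under 0.05 and without overlap. Of these Penk and Adora2a fell by edgeR, and the sums were 2405 to 3430 in zQ175:CK2a'(+/-) against 4529 to 6432 CPM in CK2a'(+/-) mice. Of the 6 astrocyte markers 3 were lower at p under 0.05, with sums of 2952 to 3247 against 3518 to 3948 CPM, and none was called. Of the 6 oligodendrocyte markers 2 were lower at p under 0.05, and Mobp fell. The part of these markers in the chaperone values was not tested.

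The interaction asked whether the knock-in effect differed with CK2α’ allele number, over the same 18 mice. edgeR called 0 of 57 members (0.00478% of all genes, 1 gene), 6 had a p under 0.05 (5.39% of all genes), and DESeq2 called 1, where it called 0.103% of all genes. That member was Cryab, with a zQ175 effect of -0.66 with 2 CK2α’ alleles and of 0.08 with 1 allele. The difference was 0.74 (SE 0.17, unadjusted edgeR p of 0.000313, FDR 0.635, DESeq2 q 0.0804), 0.59 with the oligodendrocyte markers as covariate and 0.60 without the libraries high in choroid plexus markers, where the effect with 1 allele was -0.02. Cryab was at 66.6, 71.2 and 78.1 CPM in CK2a'(+/-) mice, of which replicate 3 alone lay within the WT range. The other 5 were Hspb8 (0.87, or 0.65 without those libraries), Bag3 (0.69) and Hspa8 (0.31) above 0 (2.91% of all genes had such a p above 0), and Dnajb6 (-0.54) and Hspa4l (-1.68, or -0.98 without zQ175 replicate 4) below 0 (2.48%). Without the libraries high in choroid plexus markers 4 of the 6 kept a p under 0.05, where 44.1% of all genes with such a p did, and Hspb8 and Hspa4l did not. At p under 0.05 the interaction was below 0 for 2 of 5 cortical excitatory neuron markers and above 0 for 2 of 5 microglia markers, with none called by edgeR, and their part was not tested.

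The wider pathway was read from a list of 56 further genes, which held 10 regulators of HSF1 such as CK2 subunits, 21 other cytosolic chaperones such as prefoldins, 18 other ER folding genes and 7 other mitochondrial chaperones or proteases. In zQ175 against WT 1 of 56 passed in edgeR (1.1% of all genes), Ddit3, the stress transcription factor CHOP, which fell by 0.48 on the log2 scale (SE 0.12, edgeR FDR 0.0849). DESeq2 called 4 of the 56, all lower (5.26% of all genes in either direction), which were Ddit3, the prefoldin subunits Pfdn5 and Pfdn6, and the mitochondrial protease Clpp, the last 3 named after their values were seen. Without the libraries high in choroid plexus markers the edgeR log2 fold changes of Ddit3, Pfdn5, Pfdn6 and Clpp were -0.42, -0.37, -0.56 and -0.39, with FDRs of 0.498 to 0.592. Unadjusted edgeR p-values under 0.05 were found for 10 of the 56 (13.9% of all genes), of which 2 were higher (6.79%) and 8 lower (7.1%), and the median of the list was -0.06. In each of the 3 comparisons of mice that differ in CK2α’ alleles from WT or zQ175 mice, Csnk2a2 was the single gene of the list that passed, by edgeR and by DESeq2. None of the 56 passed between zQ175:CK2a'(+/-) and CK2a'(+/-) mice or in the interaction, by either tool, where 9 and 6 had an unadjusted edgeR p under 0.05 (9.18% and 5.39% of all genes).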

How the data were processed

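RNA-seq of mouse striatum was analysed from the counts of reads per gene deposited by the authors, 1 library per mouse. Per the labels and the study's methods, libraries came from a stranded total RNA kit, and the authors used Trimmomatic for trimming and HISAT2 2.1.0 for alignment to GRCm38, removed reads with duplicated mapping, no mapping or low mapping quality, and counted genes with Subread 1.6.2. The strand setting of the counting is not given in the sources used here, so overlapping genes are named as such. The deposited gene lengths in bases, other values than counts, were used for FPKM. Ensembl identifiers were matched to symbols of GENCODE M21 (55154 of 55421).

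Counts were tested in R 4.3.3 with edgeR 4.0.16 (quasi-likelihood test, TMM, filterByExpr, 1 fit of 18 libraries, genotype only, Benjamini-Hochberg FDR over 20914 genes, threshold 0.1). log2 CPM used a prior count of 2. DESeq2 1.42.0 with default settings was the first alternative, since the study used it. Both were tested on simulated data. The comparisons, groups and replicate numbers follow the labels. The members and lists were chosen with earlier results of these data known. Named were Csnk2a2, 19 members fixed by role, members passing in either tool, the 5 lowest p-values of each comparison and members with p under 0.05. Other alternatives were DESeq2's size factors, no filter on low counts, only the compared groups, a replicate block, Xist as covariate, FDR 0.05 and leaving out each mouse. Oligodendrocyte or astrocyte markers as covariate and leaving out 4 libraries high in choroid plexus markers were added after seeing the data. Genes under 5 CPM rested on few reads per mouse. The value of 1 marker gene is not reported here.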

Additional observations from a re-analysis of the deposited data

Results flagged for a closer look

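Single mice stood far from the rest of their group for 9 of the 96 groups of 5 mice checked over the 32 named members, by a test that chance alone passes in about 5% of groups. They were Hspa1a at 2.21 CPM and Hspb1 at 2.77 CPM in zQ175 replicate 3, Hspb1 at 3.46 CPM in WT replicate 4, Hspa4l at 9.89 CPM in zQ175 replicate 4, Dnajc6 at 254 CPM in zQ175 replicate 1 and Cct7 at 92.5 CPM in zQ175 replicate 5. In zQ175:CK2a'(+/-) mice they were Hspa8 at 954 CPM in replicate 3, Trap1 at 72.8 CPM in replicate 4 and Cct7 at 90.7 CPM in replicate 2. All 9 were the highest mouse of their group. zQ175 replicate 3 was thus high for both Hspa1a and Hspb1, next to values of at most 0.914 and 1.39 CPM in the other zQ175 mice.

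The zQ175 effect on Cryab differed with CK2α’ allele number by 0.74 on the log2 scale in DESeq2's interaction test (q = 0.0804), which edgeR did not call (FDR 0.635).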

How the results depend on the processing

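The count of members passing in zQ175 against WT mice was 2 by edgeR. It was 6 by DESeq2, 3 with no filter on low counts and 3 with astrocyte markers as covariate. It was 1 with DESeq2's size factors, 1 with the replicate block, 1 with Xist as covariate and 1 at FDR 0.05. It was 0 with only the groups compared, with oligodendrocyte markers as covariate or without the libraries high in choroid plexus markers. It ranged from 0 (without WT replicate 3 or zQ175 replicate 5) to 4 (without WT replicate 2) when single mice were left out. All genes moved too: 1.1% of them passed in the reported fit, 5.26% by DESeq2, 0.469% with the block and 2.82% without WT replicate 2. With no filter 1.2% passed, and with astrocyte markers as covariate 1.99% did. With only the groups compared, with oligodendrocyte markers as covariate, or without WT replicate 3 or zQ175 replicate 5, 0 genes passed, and without the 4 libraries high in choroid plexus markers 1 gene did. The cause of these changes between settings was not tested. Hspb8 was the member lost with size factors (FDR 0.101), the block (0.170) and Xist (0.120). In the other comparisons the count was 0 under each of these settings, except for 1 by DESeq2 in zQ175:CK2a'(+/-) against CK2a'(+/-) mice and in the interaction, and 1 with only the groups compared in zQ175:CK2a'(+/-) against CK2a'(+/-) mice. The replicate numbers did not pair the mice: same-numbered mice of different genotypes correlated at -0.14 to 0.12 after removal of group means, over 0.1 in 2 of 24 pairs, and the block changed no other call.

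Leaving out single mice, the log2 fold change of Hspa1a and Hspa1b summed ranged from -0.10 to 0.56 in zQ175:CK2a'(+/-) against WT and from -0.66 to 0.00404 in zQ175:CK2a'(+/-) against zQ175 mice, and with Xist as covariate its interaction was -0.38. The difference in mean CPM ranged from -0.316 to 0.246 for Hspa1a, from -0.787 to -0.146 for Hspb1 and from 2.18 to 3.93 for Hsf1 in zQ175:CK2a'(+/-) against zQ175 mice, and from -0.516 to 0.197 for Hspb1 in zQ175 against WT mice. The log2 fold change of Hspb1 in zQ175 against WT ranged from -0.50 without zQ175 replicate 3 to 0.19 without WT replicate 4. That of Hspa1a in zQ175:CK2a'(+/-) against zQ175 was -0.52 without zQ175:CK2a'(+/-) replicate 2, and 0.40, 0.08 and 0.18 without zQ175 replicate 3, zQ175:CK2a'(+/-) replicate 3 and zQ175:CK2a'(+/-) replicate 5.

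Correlations with Hspa1a without the 2 mice farthest from its median were 0.271 for Hspa1b, 0.449 for Hspb1 and 0.283 for Hsp90aa1. Hspd1 moved from 0.0302 to 0.510 and Hspa8 from 0.413 to 0.527 (permutation p = 0.0434 and 0.0357, unadjusted), and Bag3 from -0.403 to -0.412. Without removal of genotype means they were 0.453 for Hspa1b, 0.579 for Hspb1, 0.540 for Dnajb1 and -0.000152 for Hsf1. Hspa1a had 3 to 36 counts per mouse, so depth limits it, along with the spread between mice.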

Other observations

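Across the 18 mice, with each genotype's mean removed, log2 CPM of Hspa1a was set against 10 other members. Pearson's r was 0.63 for Hspa1b, 0.55 for Dnajb1 and 0.53 for Hspb1 (permutation p = 0.00565, 0.02 and 0.0232, and 0.0565, 0.0772 and 0.0772 after Benjamini-Hochberg adjustment). Spearman's rho was 0.47, 0.46 and 0.54, with permutation p-values of 0.052, 0.0562 and 0.0245 and an adjusted value of 0.14 for each. Without zQ175:CK2a'(+/-) replicates 2 and 5, the mice farthest from the median of Hspa1a, r was 0.271 for Hspa1b, 0.699 for Dnajb1 and 0.449 for Hspb1, so the relation with Hspa1b rests on those mice. Hspa1a and Hspa1b also share sequence, so their counts may not be independent, which was not tested. The relation with Hsf1 had an r of 0.07 and a rho of 0.08 (permutation p = 0.784 and 0.76).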
